A study of Mus musculus with 21 samples.

Results

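Stretches of open chromatin that appeared mainly in mouse livers with low STAT5 activity are described here and called STAT5-low sites. Peaks of DNase-seq in 18 livers were merged wherever they shared 1 bp or more, which gave 68362 regions. The sites were chosen by presence of a peak: 8 or more of the 10 STAT5_Low livers had to hold one, and no more than 2 of the 8 STAT5_High livers. Of the 68362 regions, 520 met both limits. Because presence chose them, the difference in presence is given below as a description.

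DNase-seq releases short fragments where DNase I reaches the DNA, so that open stretches stand out as peaks of reads. All 18 mice were untreated, pituitary-intact CD-1 (ICR) males of 8 to 10 weeks, fed without restriction, each giving 1 library, and the classes were defined by the STAT5 DNA-binding activity of a protein extract of the same liver, measured by gel shift at death. The 2 classes were thus observed states and not treatments. Another 3 livers, 2 high and 1 low by gel shift, were set aside by the submitters as outliers because their open chromatin looked like that of the opposite class, for 2 of them the treatment label contradicts the title, and they were not analysed here. Setting them aside favours a difference between the classes. Libraries held 13815438 to 17504539 tags in STAT5_High and 12890880 to 23395665 tags in STAT5_Low livers, and lists held 18673 to 39732 and 29626 to 45144 peaks. Promoters of hepatocyte genes fitted the labelled tissue: 27 of 38 had a peak in all 18 livers, against 0 of 13 macrophage, 0 of 15 endothelial, 0 of 14 stellate cell, 1 of 11 cholangiocyte and 1 of 10 lymphocyte marker genes.

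STAT5 carries the growth hormone signal to the nucleus. In male mice the pituitary releases growth hormone in pulses, each pulse activates STAT5 in hepatocytes, and STAT5 leaves the nucleus in the interval between pulses. The factor binds palindromes of the form TTCNNNGAA. Other factors of liver, such as the forkhead proteins FOXA, the nuclear receptor HNF4A and the E-box proteins of the circadian clock, bind other short sequences.

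The central 300 bases of 7 of the 20 sites with the largest difference in presence are shown, because the content of motifs in this window is the main sequence feature reported below. All were read from the plus strand of the mm9 reference. Capitals mark matches to the palindrome or to other motifs of 6 to 9 letters for liver factors; the NF-Y, SP/KLF, GATA and TEAD motifs and the hormone receptor core motifs are not marked. Near Slc45a3, Hlf and Ntrk2 no letters are marked.
Slc45a3, chr1:133890161-133890460: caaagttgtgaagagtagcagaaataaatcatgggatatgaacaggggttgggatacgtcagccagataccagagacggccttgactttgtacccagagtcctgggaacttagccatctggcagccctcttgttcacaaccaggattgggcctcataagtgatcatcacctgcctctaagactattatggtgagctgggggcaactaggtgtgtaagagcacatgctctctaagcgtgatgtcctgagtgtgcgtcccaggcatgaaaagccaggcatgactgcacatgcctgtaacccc
Top2b, chr14:17212672-17212971: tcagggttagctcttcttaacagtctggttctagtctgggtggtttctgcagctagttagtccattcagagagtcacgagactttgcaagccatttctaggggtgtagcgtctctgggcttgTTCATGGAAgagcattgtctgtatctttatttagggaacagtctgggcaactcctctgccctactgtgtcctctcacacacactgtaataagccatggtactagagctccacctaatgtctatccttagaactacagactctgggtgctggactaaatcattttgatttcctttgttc
Grtp1, chr8:13190338-13190637: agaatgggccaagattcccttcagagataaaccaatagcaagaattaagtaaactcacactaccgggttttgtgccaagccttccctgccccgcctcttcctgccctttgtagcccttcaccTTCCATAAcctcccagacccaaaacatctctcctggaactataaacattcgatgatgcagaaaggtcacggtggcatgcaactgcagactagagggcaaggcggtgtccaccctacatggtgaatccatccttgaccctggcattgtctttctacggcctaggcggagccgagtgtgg
Ptgr1, chr4:58998107-58998406: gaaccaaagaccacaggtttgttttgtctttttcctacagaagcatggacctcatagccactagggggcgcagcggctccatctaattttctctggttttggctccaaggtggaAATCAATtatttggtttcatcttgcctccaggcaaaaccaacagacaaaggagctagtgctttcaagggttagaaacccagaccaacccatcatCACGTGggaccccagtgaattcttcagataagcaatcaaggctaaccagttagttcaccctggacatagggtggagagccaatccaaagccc
Ido2, chr8:25676852-25677151: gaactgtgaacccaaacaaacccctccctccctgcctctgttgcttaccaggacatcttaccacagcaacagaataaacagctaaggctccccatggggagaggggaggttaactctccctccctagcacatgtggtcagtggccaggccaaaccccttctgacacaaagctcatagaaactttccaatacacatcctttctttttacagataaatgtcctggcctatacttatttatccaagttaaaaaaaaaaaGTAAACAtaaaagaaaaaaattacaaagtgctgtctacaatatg
Hlf, chr11:90218116-90218415: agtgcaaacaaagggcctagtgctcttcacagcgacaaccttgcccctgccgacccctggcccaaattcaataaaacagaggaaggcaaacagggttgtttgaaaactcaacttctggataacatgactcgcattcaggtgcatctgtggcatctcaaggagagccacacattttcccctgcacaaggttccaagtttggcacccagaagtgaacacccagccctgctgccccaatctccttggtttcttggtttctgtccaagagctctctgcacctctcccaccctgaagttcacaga
Ntrk2, chr13:59061766-59062065: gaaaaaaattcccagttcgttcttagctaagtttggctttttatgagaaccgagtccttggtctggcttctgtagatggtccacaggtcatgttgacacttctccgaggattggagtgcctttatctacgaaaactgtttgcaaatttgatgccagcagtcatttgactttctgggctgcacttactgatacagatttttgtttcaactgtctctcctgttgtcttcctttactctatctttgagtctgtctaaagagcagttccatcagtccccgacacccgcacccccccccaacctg
Among these 7 windows the only palindrome was TTCATGGAA, in an intron of Top2b. The window near Grtp1 held TTCCATAA, a motif of the PAR bZIP family to which Hlf belongs. The intron of Ptgr1 held the E-box CACGTG and AATCAAT, which HNF6 and CUX proteins bind. The intron of Ido2 held GTAAACA, the forkhead motif.

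In the individual STAT5_High livers the number of the 520 sites with a peak was 248, 215, 23, 4, 63, 115, 35 and 142 for replicates 1 to 8. In STAT5_Low replicates 1 to 10 it was 410, 453, 490, 433, 485, 255, 491, 494, 408 and 459. The lowest STAT5_Low liver, replicate 6, held 49.0% of the sites (95% Wilson interval 44.8 to 53.3%) and the highest STAT5_High liver, replicate 1, held 47.7% (43.4 to 52.0%), so the classes came close at this edge. These intervals count sites within 1 liver and do not cover variation among livers. Replicates 1 and 2 of STAT5_High, both of collection G74A, supplied 463 of the 845 peaks that the sites had in STAT5_High livers (54.8%). Replicate 6 of STAT5_Low supplied 265 of the 822 absences (32.2%). The presence of the sites was therefore uneven among livers of 1 class.

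Presence moved with the length of the lists. The share of all 7791 regions with a peak in 8 to 12 livers, a range that every STAT5-low site falls in, ran from 13.9% to 65.6% in STAT5_High and from 31.3% to 80.8% in STAT5_Low livers. The shortest list, STAT5_High replicate 4 with 18673 peaks, had 13.9% of those regions and 0.769% of the STAT5-low sites. STAT5_Low replicate 1, with 33057 peaks, held 78.8% of the sites, and STAT5_High replicate 2, with 39732 peaks, held 41.3%, an order that the choice of the sites favours. When every list was reduced to its 18673 strongest peaks, the same rule gave 222 regions, of which 1 overlapped a STAT5-low site. When only the 5 STAT5_High and 8 STAT5_Low livers with over 35000 peaks were used, a choice made after seeing the data, it gave 246 regions, of which 174 overlapped a site.

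**Figure D1:**
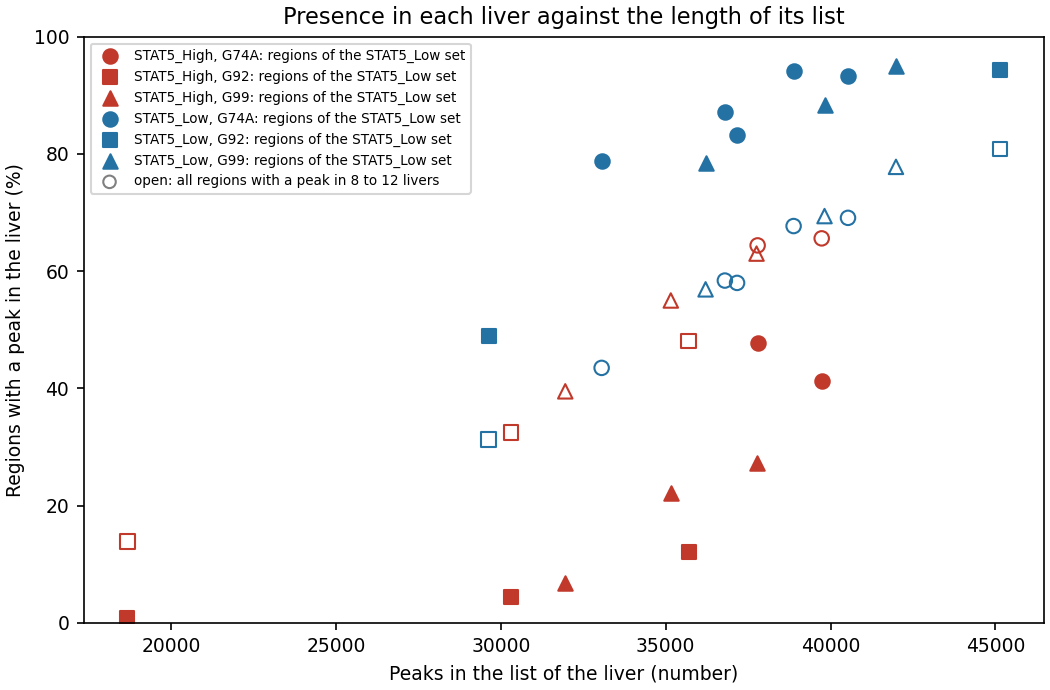
Percent of regions with a peak in each liver (vertical axis) against the number of peaks in its list (horizontal axis), for the 520 STAT5-low sites (filled) and for all 7791 regions with a peak in 8 to 12 livers (open), with marker shapes for the 3 collections. Open markers of both classes rise together with list length, while filled markers lie above them in STAT5_Low (blue) and below them in STAT5_High (red).

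Most sites only just met the limits. Of the 520, 330 had a peak in 8 STAT5_Low livers, 162 in 9 and 28 in 10, and 358 had a peak in 2 STAT5_High livers, 129 in 1 and 33 in none. The corner of 8 STAT5_Low and 2 STAT5_High livers alone held 226 sites. Just outside it, 359 regions had a peak in 8 and 3 livers and 341 in 7 and 2 livers. The median percentile of fold enrichment in STAT5_Low lists was 30.2 in that corner and 33.4 and 30.4 in the 2 neighbouring cells. In the pooled lists described below, the median log2 ratio of STAT5_Low to STAT5_High signal was 0.50 in the corner and 0.42 and 0.46 outside it. The limit therefore cut through a continuous range.

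A two-sided Fisher's exact test with Benjamini-Hochberg adjustment, run on all 15631 regions with a peak in 5 to 13 livers, called 0.134% of them towards STAT5_Low, and all 21 of these were STAT5-low sites. It called 153 regions towards STAT5_High. The rule used the same contrast, so nothing is read from this count. They were 1 site with 10 and 0 livers, 13 with 9 and 0, and 7 with 10 and 1. Adjusted p-values of the sites ran from 0.00744 to 0.337, and 294 of the 520 had an unadjusted p under 0.05, against 1265 of all 15631 tested regions in this direction.

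The site with the largest difference lay between genes on chromosome 1 (133889995 to 133890626), 10455 bp from Slc45a3, which encodes a membrane transporter. It had no peak in the 8 STAT5_High livers. In STAT5_Low replicates 1 to 10 its fold enrichment, the read density at the summit over the local background of the same library, was 3.25, 3.11, 3.35, 3.98, 4.33, 3.39, 3.38, 3.31, 2.77 and 2.60. All 10 values were low for their lists: the mean percentile was 7.84, on a scale where 100 is the strongest peak of a list. The Fisher adjusted p was 0.00744, but it rests on the same presence that chose the site, so nothing is read from it. The site also lay under a peak of the pooled STAT5_High list.

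Of the 13 sites with a peak in 9 STAT5_Low and no STAT5_High livers, 8 lay in introns. The intron of Top2b (chr14:17212558-17213084), which encodes the DNA topoisomerase II beta, had fold enrichments of 7.95, 4.04, 5.43, 6.39, 6.02, 9.30, 6.0, 6.65 and 6.25 in the STAT5_Low livers other than replicate 6. An intron of Grtp1 (chr8:13190210-13190765), a gene named for its regulation by growth hormone, had values of 3.74 to 7.46 in those other than replicate 9. These were medium peaks, at the 55.7th and 39.3rd percentiles. The Fisher adjusted p was 0.037 for each of the 13, again from the presence that chose the sites, and nothing is read from it.

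The same class held introns of metabolic genes. Ptgr1 encodes a reductase of prostaglandins and leukotrienes, and its site (chr4:58998006-58998507) lay 1735 bp from the start, with fold enrichments of 3.80 to 5.95. Ido2 encodes a tryptophan-degrading enzyme, and its site (chr8:25676732-25677271) had values of 3.69 to 5.40. Slc25a47 encodes a mitochondrial carrier of liver, and the site 305 bp beyond it (chr12:110095329-110096231) had values of 2.75 to 4.50. The intron of Hlf (chr11:90217996-90218534), a PAR bZIP transcription factor with a daily rhythm, had weak peaks of 2.56 to 3.68 at the 3.82nd percentile. Other sites with this pattern were nearest to Fam81a, Rassf8, Arhgef7, Gmds, Hnrpll and Zbtb39, and the last lay in a UTR.

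Sites with a peak in all 10 STAT5_Low livers and 1 STAT5_High liver were nearest to Ntrk2, Gp2, Phf2, Ccdc25, Krt18, Dgat2 and Pitpnc1, the last of which falls outside the naming rule and was chosen after its values were seen. The intron of Ntrk2 (chr13:59061465-59062366), which encodes a receptor of the neurotrophin BDNF and stands in the list of female-biased liver genes, was the strongest. Its fold enrichment was 5.89, 4.33, 12.0, 5.24, 7.64, 6.67, 9.49, 8.97, 8.55 and 6.06 in STAT5_Low replicates 1 to 10 and 4.35 in STAT5_High replicate 2. The single STAT5_High value thus lay at the low end of the STAT5_Low range. Near Gp2 the single STAT5_High peak, 6.58 in replicate 8, lay inside the STAT5_Low range of 3.71 to 7.82. At the start of Krt18, a keratin gene of hepatocytes, the STAT5_High peak of 4.17 in replicate 1 also lay within the STAT5_Low range of 3.13 to 4.39. A missing peak in the other livers means that none was called at this depth.

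**Figure D2:**
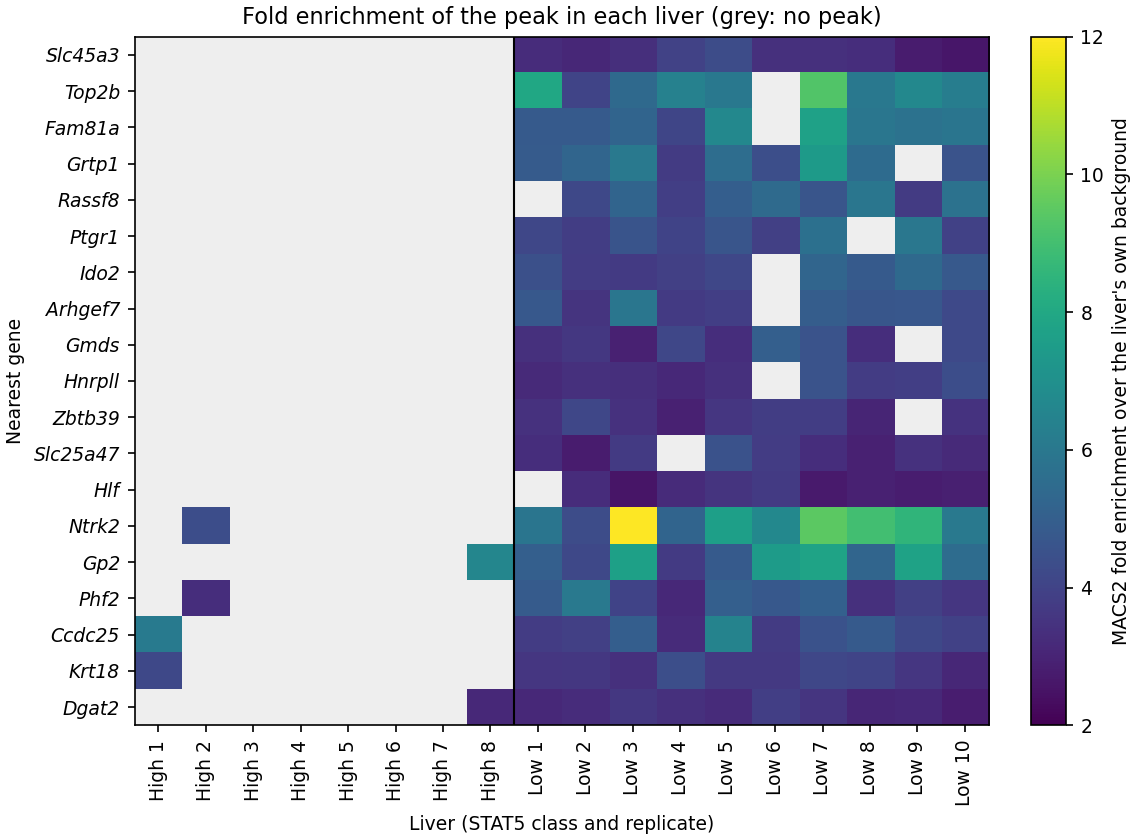
Fold enrichment (colour) of the peak in each of 18 livers (columns) at 19 of the 20 STAT5-low sites with the largest difference in presence (rows, named by nearest gene), with grey where no peak was called. The Ntrk2 row holds the highest value, 12.0 in STAT5_Low replicate 3, and 6 rows have a single STAT5_High peak.

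STAT5-low sites were weak to medium peaks. The median percentile of fold enrichment in the STAT5_Low lists was 29.5, against 31.6 for the 7791 regions in 8 to 12 livers and 78.6 for the 11748 regions with a peak in all 18 livers, and 32 of the 520 sites lay above the 50th percentile. Where a STAT5_High liver did have peaks at the sites, their median fold enrichment per liver was 4.66 ± 0.528 (mean ± SD, n = 8 livers, replicate 4 with 4 peaks), against 4.50 ± 0.253 (n = 10 livers) in STAT5_Low. The strongest site by percentile lay at the start of Rab40b, which encodes a small GTPase (chr11:121249243-121250221, 76.4th percentile). There 9 STAT5_Low livers had fold enrichments of 5.66 to 11.2, and STAT5_High replicates 2 and 6 had 9.09 and 7.78, within that range. The other sites of the 10 strongest outside the first 20 were nearest to Lhfp, Gm1330, Tcp11l1, Olfr718-ps1, Mapk8ip3, Susd4, Impg1, Abca1 and Pex14, at percentiles of 54.5 to 69.9. Abca1 exports cholesterol from cells, Pex14 serves protein import into peroxisomes, and Susd4 is a complement regulator.

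The pooled lists covered nearly every site in both classes, as they covered nearly every region in 8 to 12 livers. The list called on the pooled reads of the 8 STAT5_High livers (128.7 M tags, where M tags are megatags, and 64474 peaks) covered 518 of the 520 sites (99.6%), against 99.8% of regions in 8 to 12 livers and 85.8% of all regions, and that of the 10 STAT5_Low livers (184.7 M tags, 74451 peaks) covered all 520. Among the 33 sites with no peak in any single STAT5_High liver, 32 were covered by the pooled STAT5_High list. For the 499 sites with a summit of both pooled lists inside the region, the median pileup per M tags was 0.536 in STAT5_High and 0.790 in STAT5_Low. The median log2 ratio of STAT5_Low to STAT5_High was 0.57, a 1.48-fold difference, against 0.17 over all 52576 regions with both summits, so the sites exceeded the general level by 0.40 on the log2 scale. It was above that general level in 473 sites and at or below it in 26, against 51.7% above it among all regions in 8 to 12 livers. More than 2-fold differences were found in 33 sites. These pools rest on the same reads that chose the sites and give 1 value a class, so no test was made.

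Single sites ranged widely in this ratio. The pooled signal near Ntrk2 was 0.388 per M tags in STAT5_High and 1.40 in STAT5_Low, a log2 ratio of 1.85. It was 0.357 and 1.18 in an intron of Tcp11l1, and 0.668 and 1.88 beside Slc25a47. In the intron of Hlf it was 0.847 and 2.08, although the peaks there were weak against their local background. In the intron of Ccdc25 the values were 0.614 and 0.801, a log2 ratio of 0.38. At Slc45a3 the summit of the pooled STAT5_Low peak lay outside the site, and no ratio was formed.

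**Figure D3:**
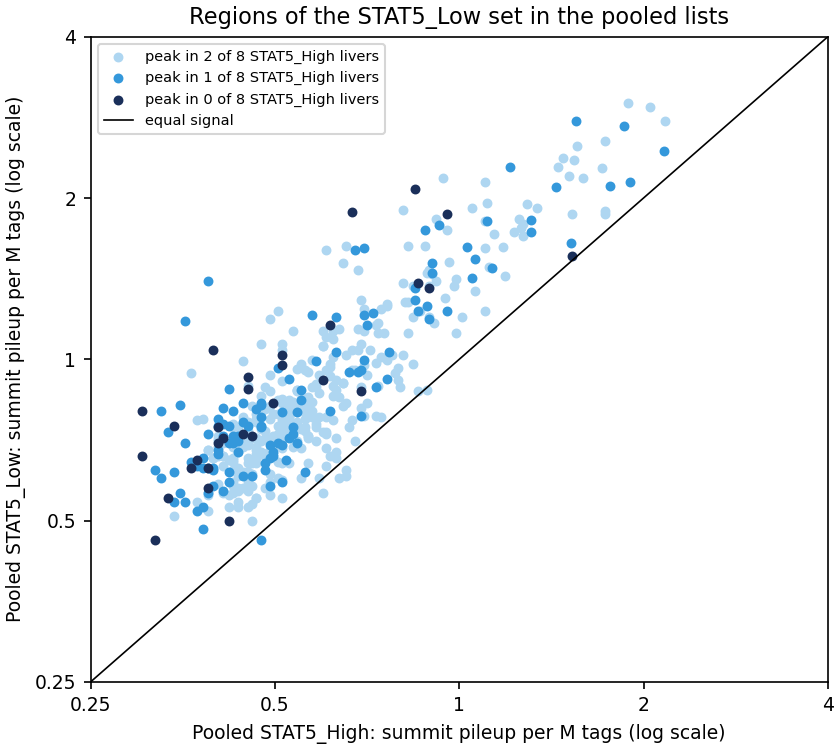
Summit pileup per M tags in the pooled STAT5_High list (horizontal, log scale) and the pooled STAT5_Low list (vertical, log scale) for 499 STAT5-low sites, coloured by the number of STAT5_High livers with a peak. Most points lie above the line of equal signal but close to it, and the median pair is 0.536 and 0.790.

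The sites lay where medium-frequency regions of liver lie in general. Of the 520, 229 (44.0%) were centred in introns, 217 (41.7%) between genes, 65 (12.5%) within 1 kb of a transcription start of a protein-coding gene, 7 in UTRs and 2 in coding exons. Over all regions in 8 to 12 livers these shares were 42.8% for introns, 43.0% between genes and 11.4% for promoters. The median distance to a start was 16340.5 bp, against 19040 bp in that range and 1852.5 bp for regions in all 18 livers. Their median width was 613 bp, against 599 bp and 961 bp. The 558 regions of the opposite pattern, found in 6 or more of 8 STAT5_High but no more than 2 of 10 STAT5_Low livers, were placed differently: 2.87% lay at promoters and the median distance was 23587 bp. Median GC content was 49.3% in the STAT5-low sites, 47.0% in regions of 8 to 12 livers and 42.3% in the opposite set. These shares were not tested, and the opposite set is no control for list length.

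Promoter sites included Krt18, whose site is centred 76 bp before a start, and Bcat2, which encodes the mitochondrial branched-chain aminotransferase and had a peak in 8 STAT5_Low and no STAT5_High livers. Next by difference came Rg9mtd3, Hps6, Ppapdc2, Mlf1, Sh3bp2, the neighbours Apoc4 and Apoc2, Nxph3 and Gpr135. Apoc2 is the cofactor of lipoprotein lipase, and its site (chr7:20263138-20263814) had a peak in all 10 STAT5_Low livers, with fold enrichments of 2.54 to 4.09, and in 2 STAT5_High livers. The pooled signal there was 1.10 and 2.14 per M tags. At the start of Cyp3a11, a main enzyme of drug oxidation, 8 STAT5_Low livers had a peak, as did 2 STAT5_High livers, and the pooled signal was 0.606 and 1.60, a log2 ratio of 1.40.

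The sites were scattered. The median distance to the nearest other STAT5-low site was 992251 bp. Another site lay within 10 kb of 14 sites, within 50 kb of 47 and within 100 kb of 81 (15.6%), and in the opposite set 115 of 558 (20.6%) had a fellow region within 100 kb. Chromosome 11 held 48, chromosome 7 held 41 and chromosome 4 held 40. Set against regions in 8 to 12 livers, the share that were STAT5-low sites was 8.99%, 9.45% and 8.23% there, 6.67% over all chromosomes and 2.58% on the X chromosome (4 of 155). The 520 sites had 492 different nearest genes. The nearest gene was also nearest to a region of the opposite set for 27 sites (5.19%), against 9.18% of the 7464 regions in 8 to 12 livers outside the opposite set. A region of the opposite set lay within 50 kb of 26 sites (5.0%) and of 5.65% of those regions.

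Several sites near 1 gene were rare, with 25 genes nearest to 2 or more. Nfib, a transcription factor of the nuclear factor I family, had 3 sites in its introns on chromosome 4, out of 5 regions there with a peak in 8 to 12 livers. They had a peak in 8, 8 and 9 STAT5_Low and in 1, 1 and 2 STAT5_High livers, and pooled log2 ratios of 0.66, 0.55 and 0.36. Gm20388 was nearest to 4, but this gene model spans 4434882 bp. Dgat2, which makes triglycerides, had 2 sites 3406 bp apart, with peaks in 10 and 9 STAT5_Low and in 1 and 2 STAT5_High livers. Hlf had 2 sites 38827 bp apart. The 2 sites at the start of Stard10, a lipid transfer protein, were separated by only 31 bp. Pairs also lay near Ano6, Apol7a, Art3, Bcar1, H2-Q10, Irf2, Kdm2b, Lima1, Minpp1, Mylk and Pde4dip. H2-Q10 and Apol7a belong to families of similar genes, and the mapping of reads between copies was not tested.

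The palindrome TTCNNNGAA was scarce in the STAT5-low sites. It occurred in the central 300 bases of 19 of 520 (3.65%, 95% Wilson interval 2.35 to 5.64%), on either strand, and in 12.1% of all regions. It occurred in 71.9% of the opposite set (68.0 to 75.4%). Among the 7791 regions in 8 to 12 livers the share was 13.9%, a figure that includes regions leaning to STAT5_High. In the 1640 of them whose shares of livers in the 2 classes differed by 10 percentage points or less it was 11.5% (10.0 to 13.1%). In the 969 leaning by over 50 points to STAT5_Low it was 4.44% (3.31 to 5.92%), and in the 492 leaning by at least 50 points to STAT5_High it was 69.1%. Over whole regions the palindrome was found in 59 of the 520 sites (11.3%), 23.2% of regions in 8 to 12 livers and 80.5% of the opposite set. A rearrangement of its letters, CTTNNNAAG, occurred in 11.9% of the sites and 10.9% of regions in 8 to 12 livers.

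Of the 19 sites with the palindrome, 12 lay in introns and 7 between genes, and 0 of the 65 promoter sites held it. By the rule of 3, which divides 3 by the number of sites, a count of 0 there allows a share of up to 4.62%. By presence in STAT5_High livers, 3 of 33 with no peak, 3 of 129 with 1 and 13 of 358 with 2 held it. By presence in STAT5_Low livers, 13 of 330 with a peak in 8, 6 of 162 with 9 and 0 of 28 with 10 (up to 10.7% by the rule of 3) held it. Named by nearest gene, they included Top2b, Tcp11l1 and 1 of the sites each of Nfib, Hlf and Kdm2b. Tcp11l1 and Kdm2b had pooled log2 ratios of 1.72 and 1.32, so a palindrome was present in sites with some of the higher ratios. The ratios of the 19 as a set were not compared with those of the other sites, and no link is read. A match is a description of letters and does not show that STAT5 binds there.

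**Figure D4:**
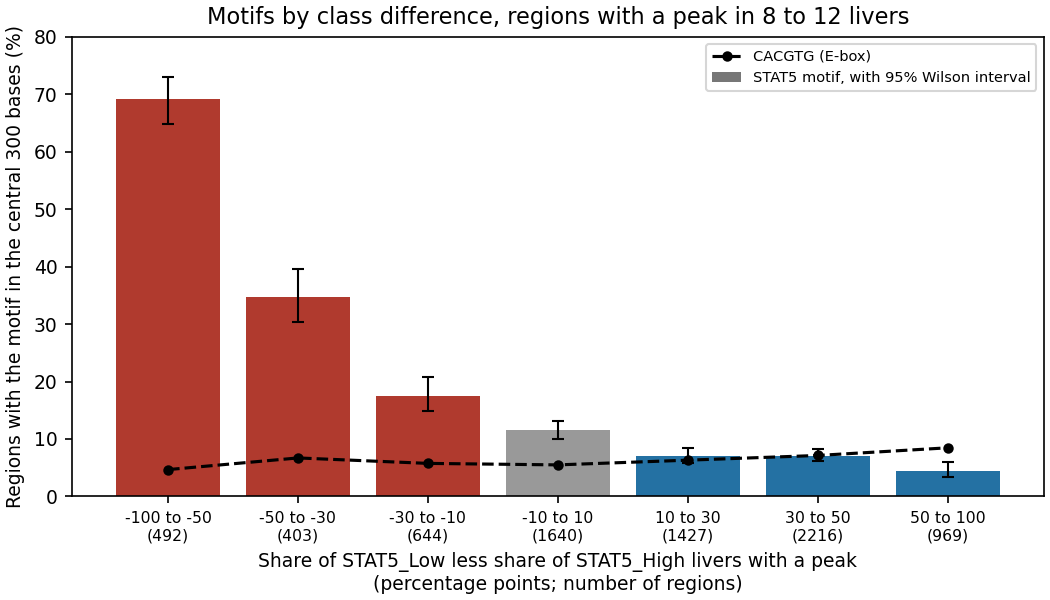
Percent of regions with TTCNNNGAA in the central 300 bases (bars with 95% Wilson intervals) and with CACGTG (dashed line), for 7791 regions with a peak in 8 to 12 livers, binned by the share of STAT5_Low less the share of STAT5_High livers with a peak. The palindrome falls from 69.1% in the bin leaning most to STAT5_High to 4.44% in the bin leaning most to STAT5_Low, which holds all 520 STAT5-low sites, and the E-box goes from 4.67% to 8.46%.

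Of the 22 motifs searched, the E-box CACGTG, bound by the USF, MYC and CLOCK:BMAL1 proteins, was found in 51 sites (9.81%, 7.54 to 12.7%), in 6.51% of regions in 8 to 12 livers (5.98 to 7.08%) and in 4.30% of the opposite set. Within the sites it was found in 7 of the 33 with no STAT5_High peak (21.2%, 10.7 to 37.8%), in 11.6% of those with 1 and in 8.10% of those with 2. Split by STAT5_Low livers instead, it was found in 9.39% of the sites with a peak in 8, in 12.3% of those with 9 and in 0 of the 28 with 10, which allows a share of up to 10.7%. The 7 without a STAT5_High peak, listed after their values were seen, were nearest to Ptgr1, Vmn2r19, Atrnl1, Ing2, Bcat2, Serpina5 and Pard6b. The interval of the small group is wide. CpG dinucleotides, which the E-box contains, averaged 7.13 per window in the sites and 5.98 in regions in 8 to 12 livers, and their part in the share was not tested. The HNF4A motif CAAAGTCC was found in 5.38% of the sites against 3.98%, GGGCGG of SP and KLF factors in 14.8% against 12.1%, CCAAT in 156 sites (26.2 to 34.1%) against 36.5%, and the AP-1 motif TGANTCA in 8.27% against 11.2%. The FOXA motif TGTTTAC was found in 7.69% against 7.91%, and the HNF6 and CUX motif ATTGATT in 7.12% against 8.72%, both close to the level of regions in 8 to 12 livers.

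Genes of liver function lay near the sites about as often as near other regions of similar frequency. Of 272 regions in 8 to 12 livers that overlapped or lay within 10 kb of a gene in 17 lists of liver pathways and cell markers, 19 were STAT5-low sites (6.99%), against 6.67% over all such regions. The list of hepatocyte genes had 5 of 36. They lay at Krt18, at Hpd of tyrosine breakdown, in introns of the nuclear receptor genes Nr5a2 and Hnf4a, and near the forkhead gene Foxa3. The site in Hnf4a (chr2:163374396-163375070) had weak peaks of 2.94, 2.99, 3.23, 2.84, 3.75, 3.30, 3.27 and 3.64 in 8 STAT5_Low livers and of 3.53 and 3.89 in STAT5_High replicates 6 and 7, so the values of the classes overlapped. At Hpd the pooled signal was 0.808 and 1.90 per M tags, a log2 ratio of 1.23.

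Among genes of the growth hormone signal, an intron of Stat5b itself (chr11:100698194-100698708), which encodes the main STAT5 protein of liver, held a site with a peak in 9 STAT5_Low and 2 STAT5_High livers. Its pooled signal was 0.730 and 1.16 per M tags. It was the single site among 25 regions in 8 to 12 livers near the growth hormone and IGF axis. Near the same genes lay 7 regions of the opposite set, which are counted here whether or not they had a peak in 8 to 12 livers. The list of STAT5 targets had 2 of 23, near Stat5b and near the acute phase inhibitor gene Serpina3n. Counted in the same way, 6 regions of the opposite set lay near this list. Male-biased liver genes had 3 of 13, in introns of Cyp2u1 and Susd4 and near Slco1a1, an organic anion transporter gene. The opposite set had 4 regions near male-biased genes, again not limited to those 13. Female-biased genes had 1 of 19, the site in Ntrk2.

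Metabolic lists held a scatter of sites. Lipid metabolism had 3 of 31, with 2 near Dgat2 and 1 in Ehhadh, an enzyme of peroxisomal fatty acid oxidation. Glucose and amino acid metabolism had 3 of 29, in Ido2, in the forkhead gene Foxo3 and near the aminotransferase gene Got1. Xenobiotic metabolism had 1 of 32, acute phase and complement 1 of 23 and the circadian clock with the PAR bZIP genes 1 of 16, the site in Hlf. Bile acid and sterol genes had 0 of 21, and immediate early and stress genes 0 of 15. Marker genes of other liver cells had none either, out of 13 regions for endothelium, 6 for cholangiocytes, 3 for stellate cells, 1 for macrophages and 1 for lymphocytes. In whole liver, fewer cells of a type and less opening per cell cannot be told apart, and these counts are too small to rank the lists.

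To measure the class difference in livers that had no part in the choice, the same rule, with limits of 80% of STAT5_Low livers or more and 25% of STAT5_High livers or fewer, was applied to the livers of 2 collections and read in the third. Liver codes in the titles begin with G74A (5 STAT5_Low and 2 STAT5_High livers), G92 (2 STAT5_Low and 3 STAT5_High) or G99 (3 of each class); no label says what these collections are. In G92, on average 19.7% of 234 regions so chosen held a peak in STAT5_High and 59.2% in STAT5_Low livers, a difference of 39.5 points (two-sided exact permutation test over livers, p = 0.10, Benjamini-Hochberg adjusted over the 3 collections 0.15). In G99, 48% and 76.1% of 578 regions held a peak, a difference of 28.1 points (exact p = 0.10, adjusted 0.15). In G74A, 51.3% and 57.3% of 1391 regions held a peak, a difference of 6.0 points (exact p = 0.524, adjusted 0.524). With so few livers 0.10 is the smallest p that G92 and G99 allow, so neither can pass 0.05, and G74A allows 0.0476. In G92 and G99 every STAT5_Low liver was above every STAT5_High liver, and in G74A the values overlapped. Of the outlier livers set aside by the submitters for their open chromatin, 2 were of G74A and 1 of G92. The livers read here were thus screened beforehand on a like measure, which favours such a separation. The regions themselves were merged from all 18 lists.

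These shares were also set against a level measured in the same liver. When the share of all regions in the same range of choosing livers was subtracted liver by liver, a step added after seeing the data, the differences were 10.4 points in G74A (exact p = 0.0476), 14.6 in G92 and 13.5 in G99 (exact p = 0.10 each), all the smallest p these designs allow, and each adjusted p was 0.10. In G74A the STAT5_High values were 3.20 and -3.87 points and the STAT5_Low values were 9.94, 10.2, 13.3, 4.79 and 12.2 points. In each of the 3 collections all STAT5_Low livers were then above all STAT5_High livers, with the outlier livers already set aside. The subtracted share took in regions leaning to either class. On average it was 51.6% in STAT5_High and 47.2% in STAT5_Low livers of G74A, so subtracting it widened the difference there. It was 31.6% and 56.5% in G92, and 54.6% and 69.2% in G99, where the difference narrowed. How far leaning regions shaped the separation was not tested. Within collections, the share of the 520 sites with a peak, a mean over livers that took part in the choice, was 87.3% in STAT5_Low and 44.5% in STAT5_High livers of G74A. It was 71.7% and 5.77% in G92, and 87.2% and 18.7% in G99.

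**Figure D5:**
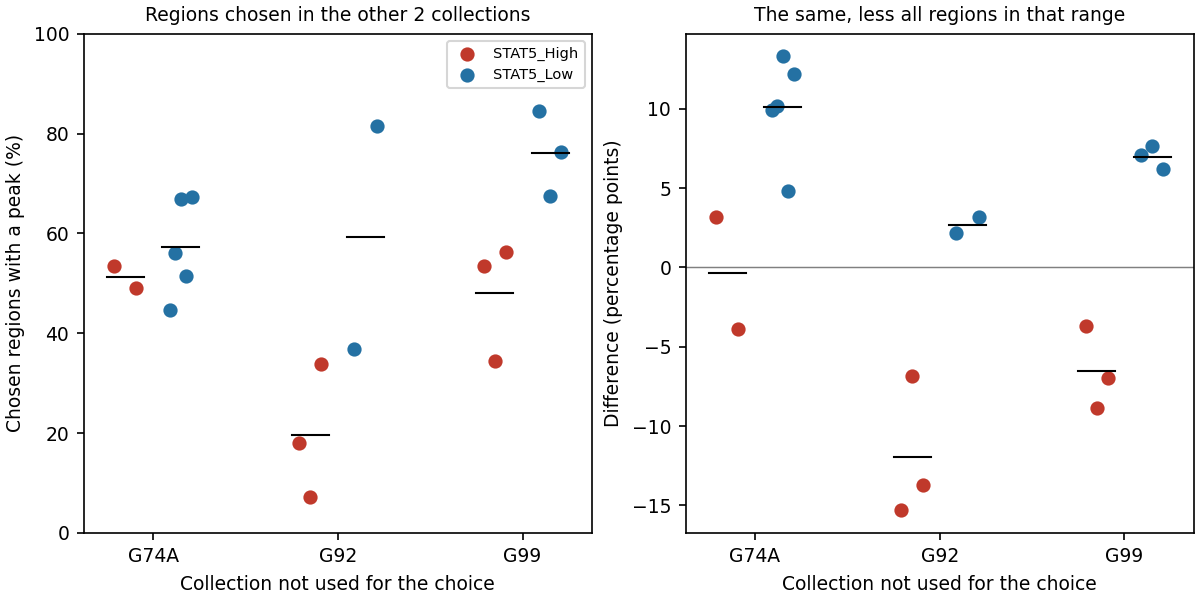
Left, percent of regions with a peak in each liver (points; lines are means) of the collection that took no part in choosing them; right, the same less the percent of all regions in the same range of choosing livers, in percentage points. STAT5_Low livers (blue) lie above STAT5_High livers (red) in all 3 collections on the right, by 10.4, 14.6 and 13.5 points on average, and overlap them in G74A on the left. The subtracted range includes regions leaning to either class. Outlier livers had been set aside by the submitters beforehand.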

How the data were processed

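DNase-seq peak lists of 18 single livers and of 2 pools were used. The submitters' processing notes name Bowtie2, MACS2 and mm9. Per the file headers, MACS2 2.1.0.20150731 called the peaks at a q cutoff of 0.05, with no control, duplicates kept, tags of 40 bases, extension 200 and shift -100. As deposited, each peak has a pileup (signal at its summit, in reads), a fold enrichment (the authors' ratio to local background) and a -log10 q. These are the authors' values and are unscaled between libraries. Percentiles rank them within a list. Fold enrichments printed for several livers stand side by side as deposited, with no test, and pooled pileups were divided by the megatags of their pool. The lists number their peaks, and 476 to 529 numbers per list are missing, so those peaks are not analysed here.

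Regions, their nearest protein-coding genes (GENCODE M1) and 300-base windows from the NCBIM37 reference, the same build as mm9, were computed with Python 3.11.15, SciPy 1.17.1 and pysam 0.24.0. Variants of the outbred stock were not considered. Presence was tested with Fisher's exact test over all regions in 5 to 13 livers and a threshold of 0.05, checked on simulated data. The simulated livers did not differ in list length and the planted changes were nearly complete, so this check does not cover uneven lists or smaller changes. Livers are separate mice, and replicate numbers do not pair them. The depth was 12890880 to 23395665 tags. The library with the most tags had 37165 peaks, and the longest list, 45144 peaks, came from 16961384 tags. STAT5_Low libraries were on average both deeper and longer in peaks: the means were 18474872.5 tags and 37921 peaks, against 16087728 tags and 33383.2 peaks in STAT5_High. The part of depth in list length was not tested. Intervals cover counting error only.

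The sites, the 17 gene lists (393 of 402 names matched) and the tests were chosen with earlier results of these data known. Sites named are the 20 with the largest difference in presence (ties by mean percentile of fold enrichment), the 10 others highest by that percentile, up to 4 per gene list, up to 15 genes with several sites and up to 10 promoter sites. Of these, 1 site is not reported here. Alternatives were summit windows, equal list lengths, a stricter -log10 q, other limits, livers or collections left out, no filter before the test and a replicate block. Livers with over 35000 peaks and the subtraction of the range share were added after seeing the data.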

Additional observations from a re-analysis of the deposited data

Results flagged for a closer look

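Among the 10 STAT5_Low livers, replicate 6 of collection G92 stood apart from the others: it had a peak at 49.0% of the 520 STAT5-low sites, while the next lowest liver had 78.5%. Its list was also the shortest of the class, with 29626 peaks, and it held 31.3% of all regions with a peak in 8 to 12 livers against a class median of 63.0%. Its library had 18069203 tags, within the range of the class. Chance alone marks about 1 in 20 groups this way. Several per-liver measures of both classes and the fold enrichments at the first 20 sites were screened, and this was the only value marked. It is also a share of the presence that chose the sites. The part of list length in this value was not tested.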

How the results depend on the processing

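The number of STAT5-low sites, 520 as reported, changed under most choices. It was 222 with equal numbers of top peaks, of which 1 overlapped a site, 58 with limits of 9 and 1 livers, 2277 with limits of 7 and 3, 1398 without collection G74A, 236 without G92, and 246 with only the 5 STAT5_High and 8 STAT5_Low livers of over 35000 peaks, an alternative added after seeing the data, of which 174 overlapped a site. Leaving out 1 liver, with the limits kept as shares, gave 166 (without STAT5_High replicate 4) to 387 (without STAT5_Low replicate 6). With 1 liver fewer these shares fell between whole numbers of livers, so the rule became stricter for the class that lost a liver. Of the 520 sites, 358 had a peak in 2 STAT5_High livers and 330 in 8 STAT5_Low livers, right at the limits. A fall in number was therefore fixed in advance, and its size does not measure dependence on the single liver alone. Summit windows of 200 bp gave 564, and a -log10 q of at least 5 gave 426, of which 109 overlapped a site. Equal numbers of top peaks and the stricter q both remove weak peaks, and the sites were weak to medium peaks. The share with TTCNNNGAA stayed between 2.60% and 6.36% in all alternatives run, and the share at promoters between 6.90% and 32.4%, the latter with equal numbers of top peaks. Regions called towards STAT5_Low numbered 21 by Fisher's exact test, 40 with equal numbers of top peaks, 1 with no filter on livers, 22 to 43 with 1 liver left out (43 without STAT5_High replicate 1 and without STAT5_Low replicate 6), and 0 without any 1 of the 3 collections, where 652, 311 and 411 regions had an unadjusted p under 0.05. The held-out difference in G74A rose from 6.0 to 10.4 points after subtraction of the range share, which includes regions leaning to either class and was higher in STAT5_High livers there. Without 1 liver it was 3.50 to 9.15 points in G74A, 17.1 to 62.0 in G92 and 21.3 to 32.4 in G99. Replicate numbers do not pair the livers. Deviations of same-numbered livers correlated at -0.077 to 0.188, over 0.1 in 3 of 8 pairs. Those 3 were the same-numbered pairs within 1 collection: 0.123 and 0.188 for replicates 1 and 2 of G74A, and 0.118 for replicate 8 of G99. Pairs across collections ran from -0.077 to 0.051. With the replicate block (exact McNemar test) 0 regions were called, 200 had an unadjusted p under 0.05, and the smallest p that 8 pairs allow is 0.00781. Absence means only that no peak was called in a liver: the pooled STAT5_High list covered 518 of the 520 sites (99.6%), and 99.8% of regions in 8 to 12 livers. Apart from the fall built into leaving out 1 liver, the cause of these changes was not tested.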
